A study of Mus musculus with 3 samples.

Results

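The genes described here are 35 genes of the p53 pathway, taken by symbol from a given list out of the 32285 genes of the deposited matrices, and all 35 were found once. They are p53 itself (Trp53), the proteins that hold it in check, and genes that it switches on, sorted here by role into regulators and feedback genes (7), arrest and growth control (9), apoptosis (11), DNA repair (5) and metabolism and transport (3). They were followed in E14 cells, a mouse embryonic stem cell line of 129/Ola background with no engineered allele named in the labels, grown on gelatin with serum and leukemia inhibitory factor. A culture received 10 uM tubercidin for 3 h, another received it for 6 h, and the control received the solvent DMSO for 6 h, so that no DMSO culture of 3 h stands beside the shorter treatment and both comparisons share 1 control. Tubercidin is an analogue of adenosine whose base carries a carbon in place of a ring nitrogen. It enters the pool of cellular adenine nucleotides and is built into RNA and DNA. Each group was 1 single-cell library (10x Genomics 3' v3), so no difference has a replicate check and no p-value is given; every interval in the text is a 95% interval of counting error only.

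The p53 protein is a transcription factor that is made and destroyed continuously in unstressed cells. Mdm2, an E3 ubiquitin ligase, marks it for the proteasome, and Mdm4 covers its activation domain. When DNA damage kinases modify p53, or when free ribosomal proteins bind Mdm2, the protein accumulates and switches on genes for cell cycle arrest, DNA repair and apoptosis, together with Mdm2 itself, which closes a negative feedback loop. Embryonic stem cells hold much p53 protein and are known for passing through the cycle without a durable G1 arrest. The protein and its modifications were not measured here; the data are transcript counts.

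The control, 3 h and 6 h libraries held 2031, 2365 and 2926 called cells with a median of 48452, 11877 and 8004.5 unique molecular identifiers (UMIs, one per captured molecule). They summed to 104892739, 29892000 and 24681924 UMIs. The fall in UMIs per cell covers RNA content, capture and sequencing depth, which cannot be told apart, so levels are given as CPM (counts scaled to a fixed total of UMIs per library), a share of each library's RNA, and the ratios are log2 ratios of CPM + 1. An interval is that of the ratio without the added 1 and lies farther from 0 for genes at a few CPM. The stem cell markers, 8 of 8 detected in each library, summed to 4347, 5178 and 3785 CPM in the control, 3 h and 6 h, of which Dppa5a gave 2549, 3555 and 2263 CPM. They did not move together: in CPM, Pou5f1 was 137, 159 and 213, Sox2 was 205, 80.6 and 81.1, and Nanog was 77.4, 62.4 and 50.2. Fibroblast markers summed to 0.963, 1.37 and 2.11 CPM, with 1, 1 and 2 of 6 at 0, and 2-cell-like markers to at most 0.324 CPM. Each pair of libraries shared 1 cell barcode. Across the 7884 genes whose mean reached 10 CPM or more, the median log2 ratio to the control was -0.27 at 3 h and -0.12 at 6 h, and 0.14 between 6 h and 3 h.

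Promoter sequences of 4 members are shown first because the response element of p53, a pair of short half-sites, is the feature by which these genes are usually known as targets. Each is the 250 bases before an annotated RefSeq transcription start, 5′ to 3′ in the sense of the gene (GRCm38.p6). Capitals mark the full site with the fewest mismatches and, among equals, the shortest spacer, or, for Mdm2, the half-site. Cdkn1a was the single member with an exact full site, Ccng1 held one with 1 mismatch, Mdm2 held a half-site and was among the members that rose most, and Bax held a site with 2 mismatches while its level moved little.
Cdkn1a (chr17:29090729-29090978, plus strand): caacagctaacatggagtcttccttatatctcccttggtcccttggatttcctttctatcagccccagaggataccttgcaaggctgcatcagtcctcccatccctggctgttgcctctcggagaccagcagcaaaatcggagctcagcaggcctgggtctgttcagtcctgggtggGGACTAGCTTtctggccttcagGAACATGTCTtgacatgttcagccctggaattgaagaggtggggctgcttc
Ccng1 (chr11:40755287-40755536, minus strand): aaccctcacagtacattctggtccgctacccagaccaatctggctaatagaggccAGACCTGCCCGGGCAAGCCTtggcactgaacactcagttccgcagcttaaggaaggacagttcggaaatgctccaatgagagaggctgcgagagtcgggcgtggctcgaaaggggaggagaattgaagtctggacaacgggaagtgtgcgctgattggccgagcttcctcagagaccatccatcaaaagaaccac
Mdm2 (chr10:117710759-117711008, minus strand): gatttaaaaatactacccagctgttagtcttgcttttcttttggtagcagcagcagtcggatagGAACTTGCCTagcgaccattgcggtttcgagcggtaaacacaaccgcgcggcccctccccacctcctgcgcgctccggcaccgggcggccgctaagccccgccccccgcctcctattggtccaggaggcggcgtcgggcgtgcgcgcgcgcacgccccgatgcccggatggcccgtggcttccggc
Bax (chr7:45466899-45467148, minus strand): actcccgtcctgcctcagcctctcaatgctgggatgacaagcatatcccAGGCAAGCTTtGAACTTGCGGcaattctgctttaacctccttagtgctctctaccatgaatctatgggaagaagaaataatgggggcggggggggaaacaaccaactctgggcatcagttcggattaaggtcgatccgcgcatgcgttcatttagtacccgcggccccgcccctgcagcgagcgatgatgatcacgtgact

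The exact Cdkn1a site began 73 bases before the outer of its annotated starts and had its half-sites 12 bases apart. The same second half-site was followed without a gap by another at 1 mismatch, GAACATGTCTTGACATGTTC. The window of the inner Cdkn1a start, which begins at position 29093519, held no half-site. The Ccng1 site began 195 bases before the start with no spacer, the Mdm2 half-site 186 bases before it, and the Bax site 201 bases before it with a spacer of 1 base. A match describes letters in a window and is not a measured binding site.

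Windows were given for 27 of the 35 members, 39 windows in all. The half-site consensus of p53, searched by its name on both strands (it is its own reverse complement), was found without mismatch in 11 of those 27 members (40.7%), against 9.55% of 27025 genes. They were Aen, Bax, Ccng1, Cdkn1a, Ei24, Mdm2, Polk, Ppm1d, Rchy1, Sesn1 and Trp53. Examples, with the core in capitals, are gaaCTTGcct in Mdm2, gaaCTAGcct in Polk, gggCATGccc in Ei24 and gagCTTGctc in Ppm1d. A full site without mismatch, with up to 13 bases between the half-sites and overlapping the half-site by construction, was found in 1 member (3.70%) and in 0.0740% of genes. With up to 2 mismatches it was found in Bax, Ccng1, Cdkn1a and Sesn1 (14.8% of the members, 4.71% of genes). Member windows were richer in G and C than all windows, with a median of 59.0% against 52.7%, and held a median of 20 CpG pairs against 7.

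The sites were set beside the levels. Of the 11 members above 1 CPM with a window that rose by at least 1.5-fold at 3 h or 6 h, 2 held a half-site (Mdm2 and Polk) and none a full site with up to 2 mismatches. Of the 15 above 1 CPM with a window that did not, 9 held a half-site and 4 a full site. Fas, under 1 CPM, has a window without a half-site and is left out of both counts. The windows are short, and sites in introns and far upstream lie outside them.

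The median of the p53 genes stood above that of all genes at 3 h and further above at 6 h. The members were chosen with earlier results of these data known, so this describes the list and is not a test. Of the 35 members, 30 had a mean of at least 10 CPM, 4 lay between 1 and 10 CPM (Gdf15, Epha2, Pmaip1 and Pidd1), and Fas lay under 1 CPM. The median log2 ratio to the control of the 30 was 0.13 at 3 h and 0.58 at 6 h, which is 0.40 and 0.70 above the median of all genes. At 3 h 20 of the 30 exceeded the median gene, and at 6 h 23 did. Of 11 other ways of processing the counts, 4 rescale whole libraries and cannot move this distance apart from the added constant. Under the other 7 it lay between 0.36 and 0.46 at 3 h and between 0.63 and 0.73 at 6 h.

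**Figure D1:**
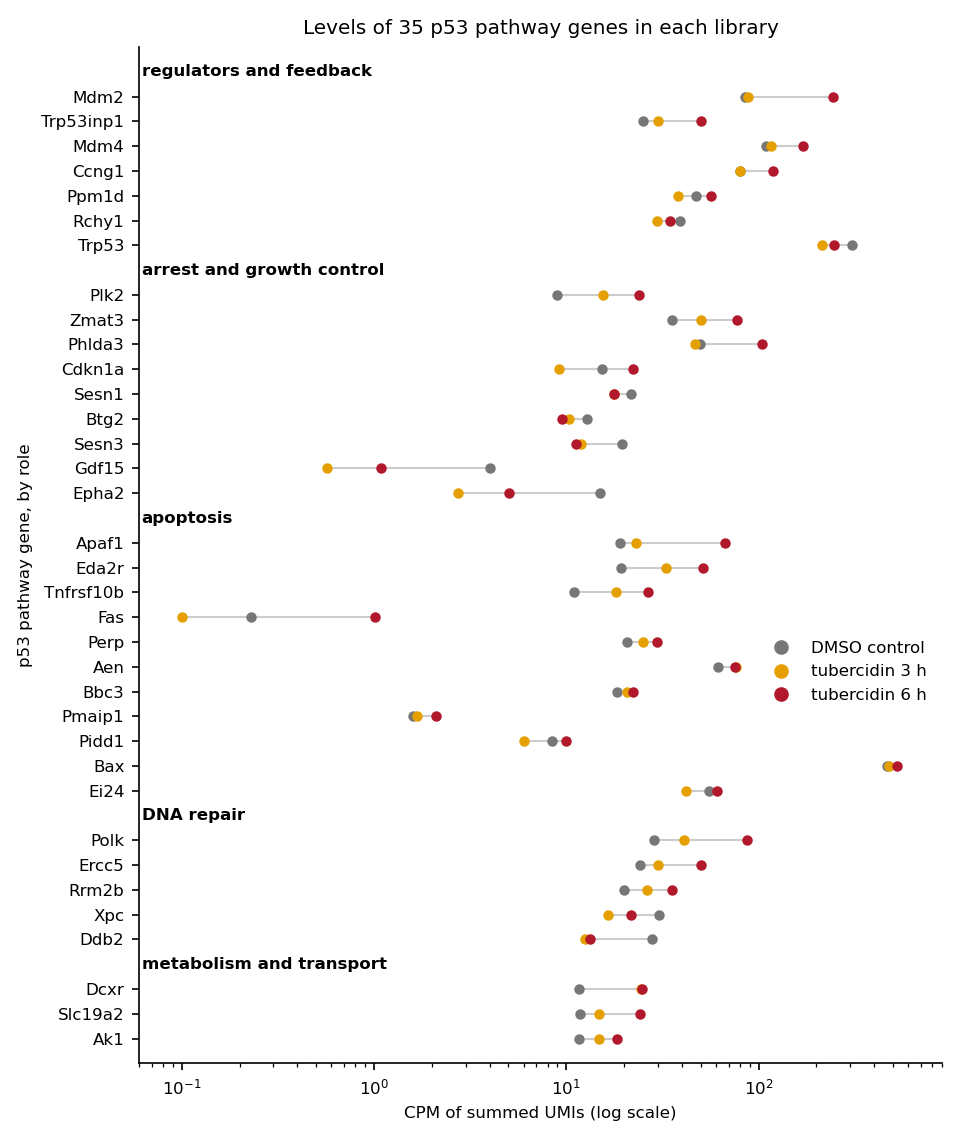
CPM of summed UMIs (log axis) for each of the 35 genes in the control (grey), tubercidin 3 h (orange) and tubercidin 6 h (red) libraries, sorted by role; each point is 1 library. Mdm2 stood at 85.3, 88.5 and 243 CPM, so its first 2 points nearly coincide and the red point lies apart, while in Dcxr the orange and red points coincide at 24.6 and 24.9 CPM.

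At 3 h, 1 of the 30 members was at least 2-fold higher than the control and 1 at least 2-fold lower, against 0.888% and 5.54% of all genes. At least 1.5-fold, 4 were higher and 4 lower (3.61% and 24.5% of all genes). With median-of-ratios scaling 7 were higher, beside 8.98% of all genes under that scaling, and 2 were lower. At 6 h, 10 members were at least 2-fold higher and 1 lower (2.33% and 4.41% of all genes). The 10 were Apaf1, Polk, Mdm2, Eda2r, Plk2, Tnfrsf10b, Zmat3, Phlda3, Dcxr and Ercc5. At least 1.5-fold, 15 were higher and 2 lower (7.06% and 16.9%). Between the treated libraries, 5 members were at least 2-fold higher at 6 h than at 3 h and 0 lower (1.64% and 0.165% of all genes), and at least 1.5-fold 11 were higher and 0 lower (8.51% and 1.67%). With median-of-ratios or TMM scaling 2 were at least 2-fold and 5 at least 1.5-fold higher, against 0.723% of all genes at 2-fold and 3.06% and 3.13% at 1.5-fold. Below, a gene is said to have risen or fallen where its log2 ratio passed 1.5-fold, and values alone are given for the others.

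Trp53 itself did not rise. Its transcript stood at 305, 215 and 247 CPM in the control, 3 h and 6 h libraries, log2 ratios of -0.50 (-0.55 to -0.47) and -0.31 (-0.35 to -0.27) to the control. Both treated libraries lay below the control, and relative to the median gene the ratios were -0.23 and -0.19. Trp53 lies at chr11:69580359-69591873, plus strand, in the GENCODE M21 annotation of GRCm38.

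Mdm2 (chr10:117688875-117710758, minus strand), the ligase that turns p53 over, rose at 6 h and not at 3 h. Its 8943, 2646 and 6002 UMIs gave 85.3, 88.5 and 243 CPM in the same order. The 2 earlier libraries lay close together and the 6 h library stood 2.85-fold above the control (log2 1.5, 1.46 to 1.56). The log2 ratio at 3 h was 0.05 (-0.01 to 0.12) and was just below 0 with a stricter UMI minimum for cells. Between 3 h and 6 h the log2 ratio was 1.45 (1.39 to 1.52). Mdm4, the relative of Mdm2 that blocks the activation domain of p53, stood at 109, 116 and 171 CPM, 1.57-fold above the control at 6 h (log2 0.65, 0.60 to 0.70).

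Trp53inp1, which binds p53 and stress kinases in the nucleus, stood at 25.2, 29.8 and 50.3 CPM, with a log2 ratio of 0.23 at 3 h and 0.97 (0.90 to 1.09) at 6 h. Ccng1, cyclin G1, which brings a phosphatase to Mdm2, stood at 80.4, 80.1 and 119 CPM. Its log2 ratio at 6 h was 0.56 (0.51 to 0.63), just under 1.5-fold, and that at 3 h was -0.01, with the other sign under 6 of the 11 alternatives. Ppm1d, the phosphatase Wip1 that removes damage phosphates from p53 and its kinases, stood at 47.1, 38.3 and 56.8 CPM, below the control at 3 h (log2 -0.29, -0.39 to -0.21) and above it at 6 h (0.26, 0.18 to 0.35). Rchy1, another ubiquitin ligase for p53, stood at 39.0, 29.5 and 34.7 CPM, below the control in both treated libraries (log2 -0.39 and -0.16). The median log2 ratio of the 7 regulators was -0.01 at 3 h and 0.56 at 6 h; 3 of them rose at 6 h (Mdm2, Mdm4 and Trp53inp1) and 0 at 3 h.

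The arrest and growth control genes moved in both directions. Cdkn1a, which encodes the cyclin-dependent kinase inhibitor p21, stood at 15.4, 9.13 and 22.2 CPM. It fell at 3 h (log2 -0.69, -0.94 to -0.56) and was 0.51 (0.39 to 0.67) above the control at 6 h, under 1.5-fold. Between 3 h and 6 h it rose by 1.20 (1.07 to 1.5). The 3 h library was the lowest and the 6 h library the highest, a turn seen under each alternative other than UMIs per cell, with a log2 ratio at 3 h between -0.74 and -0.47.

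Of the other arrest genes, 3 rose at 6 h. Phlda3, a small lipid-binding protein that competes with Akt at the membrane, stood at 49.4, 46.9 and 105 CPM (log2 1.07 at 6 h, 1.02 to 1.15). Its log2 ratio at 3 h, -0.07, turned positive with median-of-ratios and TMM scaling. Zmat3, a zinc finger RNA-binding protein, stood at 35.5, 50.1 and 77.0 CPM, so that the 3 h library lay between the others (log2 0.48 and 1.09). Plk2, a polo-like kinase, stood at 8.92, 15.5 and 23.9 CPM and had risen by 3 h (log2 0.73, 0.63 to 0.96) and further by 6 h (1.33, 1.27 to 1.57). With free RNA subtracted the 3 h ratio of Plk2 was 0.55, under 1.5-fold, but the free RNA held 1 Plk2 UMI at 3 h and 0 in the control.

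The remaining arrest and growth genes lay below the control at both times. Epha2, an ephrin receptor kinase, had 1579, 82 and 124 UMIs, or 15.1, 2.74 and 5.02 CPM, and was lower by 5.49-fold and then 3.00-fold at 6 h in the ratio without the added 1. Gdf15, a secreted stress hormone of the TGF-beta family, had 423, 17 and 27 UMIs, or 4.03, 0.569 and 1.09 CPM, a level 7.09-fold and then 3.69-fold lower. Both were lowest at 3 h, and in both the control stood apart from the treated libraries. Sesn3, a sestrin that restrains mTORC1, stood at 19.5, 12.0 and 11.2 CPM. It fell at both times (log2 -0.66 and -0.75), but at 3 h its ratio reached -0.43, under 1.5-fold, among alternatives other than UMIs per cell. Its relative Sesn1 stood at 21.7, 17.7 and 17.7 CPM (log2 -0.28 at both times). Btg2, an antiproliferative adaptor of the mRNA deadenylase complex, stood at 12.8, 10.3 and 9.48 CPM (log2 -0.28 and -0.39). Over the 7 arrest genes with at least 10 CPM the median was -0.28 at 3 h and 0.51 at 6 h, but with Gdf15 and Epha2 included it was -0.28 at both times.

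Among the apoptosis genes, Apaf1 moved most. Apaf1 (chr10:90989311-91082770, minus strand) is the scaffold of the apoptosome, on which cytochrome c activates caspase-9. It stood at 19.1, 23.0 and 67.1 CPM, from 2000, 688 and 1657 UMIs, a log2 ratio of 0.26 (0.14 to 0.40) at 3 h and 1.76 (1.72 to 1.91) at 6 h, the highest 6 h ratio of the 34 members above 1 CPM. As in Mdm2, the control and 3 h libraries lay close together and the 6 h library apart.

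Both expressed receptors of the tumor necrosis factor family rose at 3 h already. Eda2r, the receptor for ectodysplasin A2, stood at 19.2, 32.9 and 51.5 CPM (log2 0.75 and 1.38). Tnfrsf10b, the mouse death receptor for TRAIL, stood at 10.9, 18.2 and 26.6 CPM (log2 0.68 and 1.21). In each the 3 h library lay between the others. Fas, another death receptor, had 24, 3 and 25 UMIs, and its 3 UMIs at 3 h equal the 3 counts that a count of 0 allows here; without the added 1, the 6 h library was 4.43-fold above the control (log2 2.15, 1.28 to 3.02).

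The BCL2 family genes of the set changed little. Bax, which opens pores in the outer mitochondrial membrane, stood at 468, 475 and 525 CPM (log2 0.02 and 0.17, with the opposite sign at 3 h when each cell was weighted equally). Bbc3, the BH3-only protein Puma, stood at 18.3, 20.7 and 22.2 CPM (log2 0.17 and 0.26). Pmaip1, the BH3-only protein Noxa, had 168, 50 and 52 UMIs, or 1.60, 1.67 and 2.11 CPM, and its intervals at 3 h (-0.42 to 0.53) and 6 h (-0.08 to 0.85) both held 0. Its log2 ratio of 0.04 at 3 h had the other sign with free RNA subtracted, with equal weight for each cell and without the cells of highest UMIs. The free RNA held 1 Pmaip1 UMI at 3 h and 0 in the control.

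The other apoptosis genes stayed under 1.5-fold at both times. Perp, a desmosomal membrane protein, stood at 20.8, 25.0 and 29.6 CPM (log2 0.25 and 0.49). Aen, an apoptosis-enhancing nuclease, stood at 61.5, 76.2 and 75.8 CPM, 0.30 above the control at both times. Ei24, a membrane protein of the endoplasmic reticulum, was at 55.6, 41.9 and 60.6 CPM (log2 -0.40 and 0.12). Pidd1, a subunit of the PIDDosome that activates caspase-2, was at 8.39, 6.02 and 9.97 CPM (log2 -0.42 and 0.22). In Ei24 and Pidd1, as in Ppm1d and Cdkn1a, the 3 h library was the lowest and the 6 h library the highest. The 8 apoptosis genes with at least 10 CPM had medians of 0.26 (3 h) and 0.39 (6 h); 3 of them rose at 6 h.

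The repair genes split between those that rose and those that fell. Polk (chr13:96480690-96542579, minus strand), a translesion DNA polymerase, stood at 28.7, 41.2 and 87.3 CPM, with a log2 ratio of 0.51 (0.43 to 0.62) at 3 h and 1.57 (1.52 to 1.69) at 6 h. Ercc5, the nuclease XPG that cuts 3′ of a lesion in nucleotide excision repair, stood at 24.3, 30.0 and 50.1 CPM (log2 0.29 and 1.01). Rrm2b, the p53-inducible small subunit of ribonucleotide reductase, stood at 19.99, 26.3 and 35.5 CPM (log2 0.38 and 0.80). In these the order was control, 3 h, 6 h. The damage sensors of the same repair pathway went the other way. Ddb2 stood at 28.1, 12.5 and 13.4 CPM and fell at both times (log2 -1.11, -1.33 to -1.02, and -1.02, -1.24 to -0.91). At 3 h it was under 2-fold lower with median-of-ratios and TMM scaling, and at 6 h without the cells of highest UMIs. Xpc stood at 30.3, 16.5 and 21.6 CPM and fell at 3 h (log2 -0.84), with -0.47 at 6 h. The median of the 5 repair genes was 0.29 at 3 h and 0.80 at 6 h, a value that hides this split.

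Some of these genes have neighbours that could share reads. Ei24, Rrm2b and Ddb2 are overlapped on the opposite strand by Gm26787, Gm49085 and Acp2, and the strand setting of the counting is not given in the sources used here, so their values are less certain. Ercc5 starts 2974 bases after the end of Bivm on the same strand, whose log2 ratio at 6 h was -0.48, and Ak1 starts 952 bases after St6galnac6, whose ratio was 0.39. What part read-through from these had in the values was not tested. Across the 30 members the log2 ratio at 6 h had a Spearman rank correlation of 0.12 with gene length, 0.16 with the number of exons and 0.21 with mean CPM, given as a description.

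The metabolic genes all rose at 6 h. Dcxr (chr11:120725399-120727281, minus strand), a reductase of sugars and dicarbonyls, stood at 11.6, 24.6 and 24.9 CPM. It was the only member above 10 CPM at least 2-fold higher at 3 h (log2 1.02, 0.95 to 1.22), and it moved no further by 6 h (log2 between the treated libraries 0.02, -0.14 to 0.18, and -0.20 with median-of-ratios or TMM scaling). The 2-fold call at 3 h was lost with free RNA subtracted, with equal weight for each cell and without the cells of highest UMIs. Log2 ratios there went down to 0.73. The free RNA held 3 Dcxr UMIs at 3 h and 1 in the control. Slc19a2, a thiamine transporter, stood at 11.8, 14.9 and 24.3 CPM (log2 0.31 and 0.99). Ak1, a cytosolic adenylate kinase, stood at 11.7, 14.8 and 18.3 CPM (log2 0.31 and 0.60), the late riser nearest to 1.5-fold, which it missed with TMM scaling, with free RNA subtracted and with a UMI minimum of 1/5.

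The members that rose could be divided by time. A member was called early where it passed 1.5-fold at 3 h, and late where it passed it at 6 h and not at 3 h. Of the 34 members above 1 CPM, 4 were early, namely Dcxr, Eda2r, Plk2 and Tnfrsf10b, and 11 were late, namely Ak1, Apaf1, Ercc5, Mdm2, Mdm4, Phlda3, Polk, Rrm2b, Slc19a2, Trp53inp1 and Zmat3. Among all genes with at least 10 CPM 3.61% were early and 4.62% late; the early and late members all pass that filter too, as 4 and 11 of 30. A further 4 of the 34 members were lower at 6 h (Ddb2, Epha2, Gdf15 and Sesn3), 11.8% of them, and 2 of the 30 (6.67%), beside 16.9% of all genes. The remaining 15 (44.1% of the 34) passed 1.5-fold in neither direction at 6 h. Of the 30 members 13 did so (43.3%), beside 74.8% of all genes, early genes not counted among them.

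**Figure D2:**
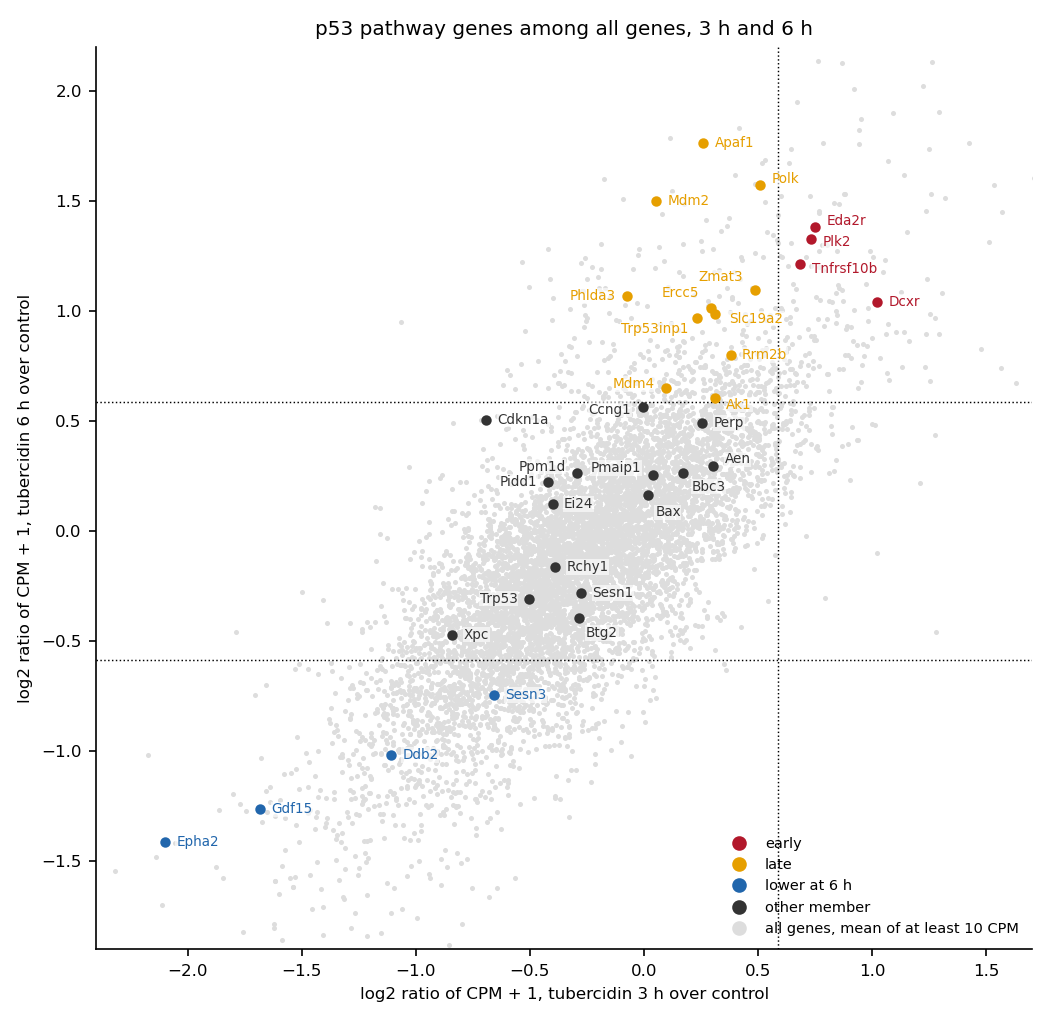
Log2 ratio of CPM + 1 to the control at 3 h (horizontal) and 6 h (vertical) for the 34 members above 1 CPM, coloured by timing, over all 7884 genes with at least 10 CPM in grey; dotted lines mark 1.5-fold. Mdm2, Apaf1 and Phlda3 lie high near the vertical of no change at 3 h (0.05, 0.26 and -0.07), while Dcxr lies at 1.02 and 1.04.

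The border between early and late was narrow. Polk (0.51) and Zmat3 (0.48) lay just under 1.5-fold at 3 h, and Tnfrsf10b (0.68) was the early member nearest to it. With median-of-ratios scaling, which raised the median gene at 3 h by 0.23, Zmat3, Rrm2b and Polk joined the early group, which then held 7 members, and 8 were late. Under that scaling 8.98% of all genes were early and 3.27% late. With TMM scaling Zmat3 and Polk joined it and Ak1 no longer passed. At 6 h, Ccng1 (0.56) and Cdkn1a (0.51) lay just under 1.5-fold. Mdm2, Apaf1, Phlda3, Mdm4, Trp53inp1, Ercc5 and Slc19a2 were late under these scalings as well. The 4 early members differed after 3 h, since Dcxr stayed level while Eda2r rose by 0.63 (0.52 to 0.77) and Plk2 by 0.59 (0.45 to 0.80). Tnfrsf10b had a log2 ratio of 0.53 (0.39 to 0.72) between the treated libraries.

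**Figure D3:**
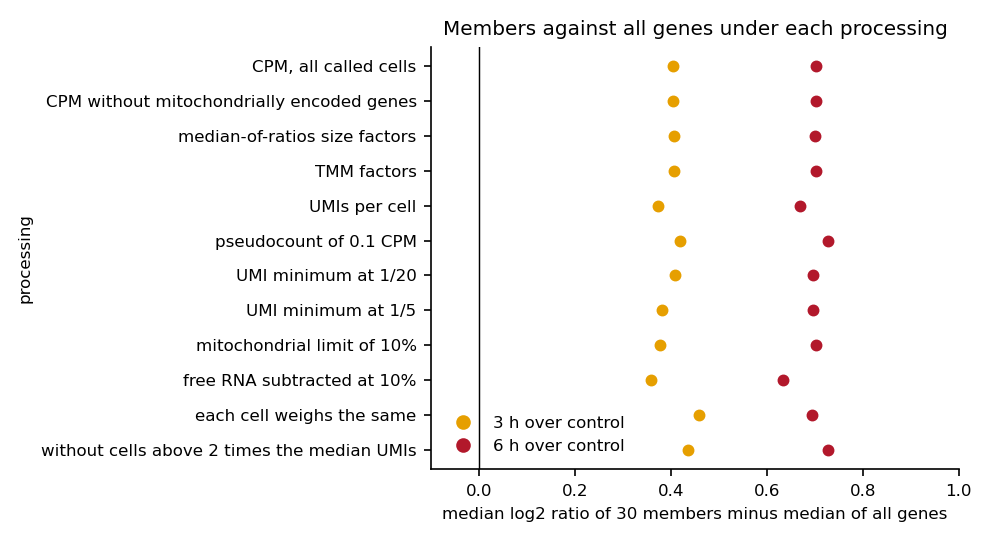
Median log2 ratio of the 30 members with at least 10 CPM minus the median of all genes (horizontal) under the CPM scaling and each of 11 alternatives (vertical), at 3 h (orange) and 6 h (red). The orange points lie between 0.36 and 0.46 and the red points between 0.63 and 0.73; the settings that rescale whole libraries cannot move them apart from the added constant.

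These ratios describe shares of each library's RNA and not molecules per cell. In UMIs per cell, Mdm2 went from 4.40 in the control to 1.12 at 3 h and 2.05 at 6 h, and Apaf1 from 0.985 to 0.291 and 0.566. Per cell, the 6 h library lay below the control by 1.5-fold or more in each of the 34 members above 1 CPM. The median gene was itself past that mark, at a log2 ratio of -2.53 (with 0.0516 UMIs per cell added to both values). The count of 34 therefore does not set the members apart. With that constant, the median of the 30 members with at least 10 CPM lay 0.67 above the median gene at 6 h. Between the treated libraries 3 members, Mdm2, Apaf1 and Cdkn1a, were at least 1.5-fold higher per cell at 6 h than at 3 h, Cdkn1a going from 0.115 to 0.188 UMIs. Among all genes with at least 10 CPM, 0.647% passed the same rule with that constant added.

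Single cells were compared after drawing 4000 UMIs from each, which left 2031, 2243 and 2642 cells. A UMI of Mdm2 was found in 25.0% of control cells (23.1 to 27.0%), 29.9% of 3 h cells and 53.8% of 6 h cells. Before thinning these shares were 90.5%, 59.6% and 71.6%. Cells with 2 Mdm2 UMIs were 3.89% of the control and 13.1% at 6 h, and those with 3 UMIs 1.08% and 6.06%. At this equal depth more 6 h cells showed several Mdm2 UMIs, which describes shares of RNA and not copies held. Apaf1 was found in 6.70%, 7.94% and 20.1% of cells, Polk in 10.2%, 14.4% and 26.6%, and Phlda3 in 18.5%, 16.6% and 31.5%. The cultures held no cell type that should lack these genes. Free RNA was therefore taken from barcodes of 10 to 100 UMIs. Subtracting it at 10% of UMIs left each late member named here above 1.5-fold at 6 h except Rrm2b and Ak1. The free RNA rests on few UMIs, most of all in the control and 3 h libraries. In the control, 3 h and 6 h they were 16, 4 and 98 for Mdm2, 1, 2 and 35 for Rrm2b, and 0, 1 and 8 for Ak1.

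The genes that fell were found in fewer cells as well. Epha2 was found in 5.76% of control cells, 1.47% at 3 h and 1.63% at 6 h, and Ddb2 in 9.60%, 4.81% and 4.88%. Trp53 was found in 69.9%, 55.7% and 61.3%, and Bax, in most cells of each library, in 82.2%, 82.6% and 87.6%. Dcxr rose at 3 h and then stood level in cells too, at 4.73%, 9.01% and 8.40%.

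**Figure D4:**
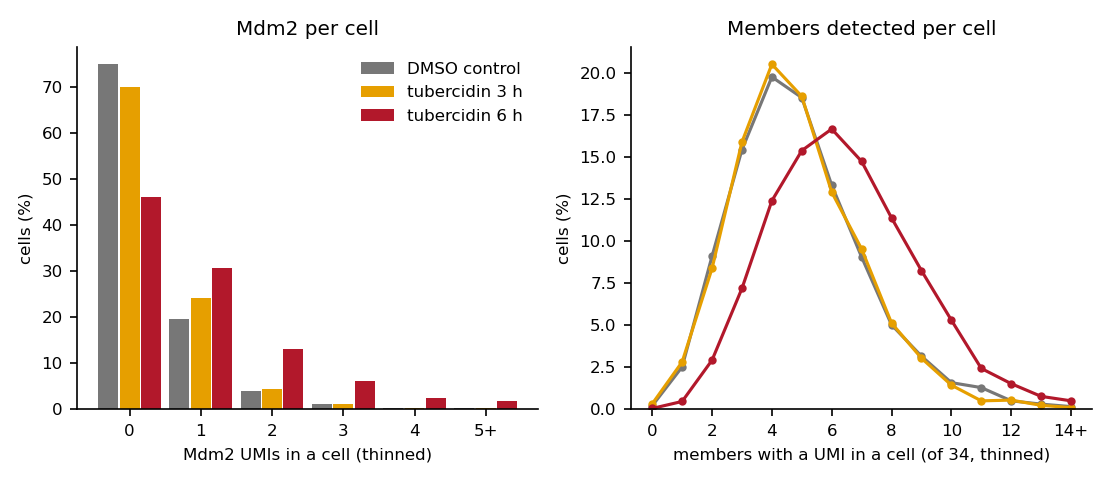
Left, share of cells (%) with 0 to 5 or more Mdm2 UMIs; right, share of cells (%) by how many of the 34 members above 1 CPM had a UMI, both after thinning to 4000 UMIs, in the control (grey), 3 h (orange) and 6 h (red) libraries. Cells without an Mdm2 UMI were 75.0% and 70.1% in the control and at 3 h and 46.2% at 6 h, and the 6 h curve of members per cell is shifted to the right as a whole.

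A cell of the control showed a mean of 4.93 of the 34 members, a cell at 3 h 4.86 and a cell at 6 h 6.38. The middle of the distribution moved with the mean, from a median of 5 members to 6. Without Mdm2 the means were 4.68, 4.56 and 5.85, so the shift was not that of Mdm2 alone. Within the libraries, cells were divided by total UMIs into 3 equal groups. Against control cells of the same rank, the median log2 ratio of the members at 6 h was 0.47 in the group of lowest UMIs, 0.59 in the middle and 0.63 in the highest, and that of Mdm2 was 1.11, 1.45 and 1.73.

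A further list of pathway genes, also chosen with earlier results known, was tallied for comparison. Of its 121 symbols 117 were found, 89 with at least 10 CPM. Of 37 other genes known as induced targets, 12 were at least 2-fold higher at 6 h and 1 lower (2.33% and 4.41% of all genes), with a median log2 ratio of 0.34. At 3 h 1 was at least 2-fold higher, beside 0.888% of all genes (Sfn, an inhibitor of the cycle, named after its value was seen). The highest ratios at 6 h in the whole list were those of Cpt1c, a brain-type carnitine palmitoyltransferase (18.2, 35.2 and 89.0 CPM, log2 2.23), Zfp385a, a zinc finger protein that binds p53 (7.70, 11.4 and 26.8 CPM, 1.67), and Klhl26 (25.5, 22.5 and 79.1 CPM, 1.60). Gadd45a, a textbook damage target, fell to 8.97 and 6.00 CPM from 18.8 (log2 -1.5 at 6 h). Sesn2 stood at 53.5, 37.8 and 46.1 CPM and Tigar, a regulator of glycolysis, at 38.1, 30.2 and 30.6 CPM.

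Of the 8 damage and stress kinases, 0 were 1.5-fold higher at 3 h or 6 h, beside 3.61% and 7.06% of all genes, a count that does not set them apart. At each time 6 of the 8 lay above the median gene. Atr was lower at both times, at 42.7, 21.04 and 26.98 CPM. Atm stood at 68.5, 63.4 and 85.9 CPM, Chek1 at 57.0, 40.6 and 42.3 CPM, and Chek2 at 44.4, 37.0 and 49.0 CPM. Usp7, the deubiquitinase of Mdm2 and p53, stood at 304, 217 and 327 CPM, and among the 25 cofactors and modifiers 1 was 1.5-fold higher (Prmt5) and 1 lower (Sirt1) at 6 h, beside 7.06% and 16.9% of all genes, both named after their values were seen. Of 19 cell cycle genes that p21 lowers through the DREAM repressor complex, 2 were at least 2-fold lower at 6 h (4.41% of all genes), Cdk1 (143, 59.5 and 47.8 CPM) and Aurkb (44.7, 18.0 and 17.8 CPM). At least 1.5-fold, 3 of the 19 were lower, near the share of 16.9% among all genes. Their group median was -0.30 at 6 h, beside -0.12 for all genes.

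**Figure D5:**
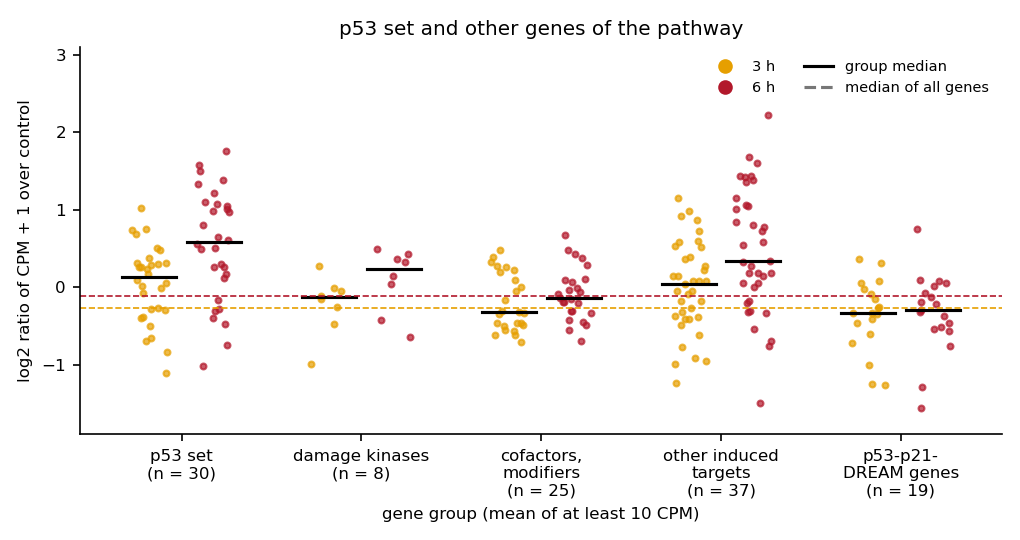
Log2 ratio of CPM + 1 to the control at 3 h (orange) and 6 h (red) for the 30 members and 4 groups of other pathway genes with at least 10 CPM; points are genes, black bars group medians and dashed lines the medians of all genes. The medians at 6 h are 0.58 for the 30 members, 0.34 for other induced targets, 0.23 for the damage kinases, -0.14 for cofactors and -0.30 for the DREAM genes.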

How the data were processed

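Polyadenylated RNA of single E14 cells was measured in 3 libraries. The deposited values are UMI counts per gene and barcode, not normalized, which the file headers and the submitters' processing notes credit to Cell Ranger 7.1.0; the notes also name the build mm10. The annotation, the strand setting and whether intronic reads were counted are not given in the sources used here.

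The deposited matrices hold all barcodes. Cells were called as barcodes with at least 1/10 of the 99th percentile of UMIs among the top 3000 barcodes (11034, 2961 and 2107 UMIs in the control, 3 h and 6 h), 500 or more genes and no more than 20% mitochondrial UMIs. Doublets were kept and no cell types were assigned. The UMIs of all cells in a library were added up and scaled to CPM, and ratios were taken as log2 of CPM + 1. A count of 0 allows up to 3 counts, or 0.0286, 0.100 and 0.122 CPM. Intervals of ratios are exact conditional binomial and those of shares of cells Clopper-Pearson. No test was run, since a group is 1 library; genes were counted by fold among those with a mean of at least 10 CPM. The scripts were tested on simulated data.

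The members and lists were chosen with earlier results of these data known. All 35 members are named; of the other pathway genes, the 3 highest and 3 lowest ratios at 6 h, and Atm, Atr, Chek1, Chek2, Usp7, Sesn2, Gadd45a and Tigar. Marker lists of primitive endoderm summed to 8.03, 6.22 and 9.89 CPM and those of trophoblast to 13.9, 9.50 and 11.6 CPM. Gene positions come from GENCODE M21 and promoter windows from RefSeq, both on GRCm38. Of the 32285 identifiers 32158 were found in GENCODE. Alternatives covered scaling, pseudocount, cell calling, free RNA, doublets and the weight of cells. Mismatch limits for the full p53 site (up to 2, and up to 3, which 33.3% of members and 17.4% of genes passed) were chosen after seeing the data. The software was Python 3.11.15 with scipy 1.17.1, pandas 2.3.3, matplotlib 3.10.9 and numpy 2.4.6, and edgeR 4.0.16 in R 4.3.3, which gave the TMM factors only.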

Additional observations from a re-analysis of the deposited data

Results flagged for a closer look

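In 4 members the 3 h library lay below the control and the 6 h library above it, with counting intervals on opposite sides of 0. The log2 ratio between 6 h and 3 h was 1.20 for Cdkn1a, 0.64 for Pidd1, 0.56 for Ppm1d and 0.52 for Ei24. At 3 h 5725 of the 7884 genes with at least 10 CPM lay below the control, with a median of -0.27. Minus that median, the 3 h ratios were -0.42 for Cdkn1a, -0.15 for Pidd1, -0.02 for Ppm1d and -0.13 for Ei24. The share of all genes with the same turn was not counted. The difference between the time points was not tested, since each is 1 library, and both were set against the 6 h DMSO control.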

How the results depend on the processing

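No paired analysis was possible because each group has 1 library, and for the same reason no library could be left out. Of 11 alternatives, leaving out mitochondrially encoded genes, a pseudocount of 0.1 CPM, a UMI minimum of 1/20 or 1/5 and a mitochondrial limit of 10% kept each count and median over the members within 1.5 times or the counting error of the value given. Median-of-ratios scaling gave, at 3 h, 0 members at least 2-fold lower, 2 at least 1.5-fold lower and a median of 0.37. It gave 7 at least 1.5-fold higher at 3 h, the 7 early members under it, beside 8.98% of all genes. Between 6 h and 3 h it gave 2 at least 2-fold and 5 at least 1.5-fold higher (0.723% and 3.06% of all genes) and a median of 0.31. TMM scaling gave 0 and 2 lower and a median of 0.32 at 3 h, with 2, 5 and 0.31 for 6 h over 3 h. Subtracting free RNA at 10%, equal weight for each cell, and leaving out cells above 2 times the median UMIs each gave 0 members at least 2-fold higher at 3 h. Of all genes 1.14%, 0.951% and 0.926% passed the same rule under these settings. Equal weight also gave 2 at least 1.5-fold lower at 3 h and 7 at least 1.5-fold higher between 6 h and 3 h (5.82% of all genes). The cells left out gave 0 at least 2-fold lower at 6 h. In UMIs per cell, which contains the depth of each library (ratios with 0.0516 UMIs per cell added), the higher calls turned: 0 members were higher at 3 h or 6 h, 29 and 30 were at least 2-fold and 1.5-fold lower at 3 h (median -1.78), 28 and 30 at 6 h (median -1.86), and, of 6 h over 3 h, 0 were at least 2-fold and 2 at least 1.5-fold higher (median -0.035; 3 without the added constant, which also gives 29 in place of 28); 0 were early, 0 late and 34 lower. In that unit 0.647% of all genes were at least 1.5-fold higher at 6 h than at 3 h. The median gene stood at -2.16 at 3 h and -2.53 at 6 h, so the counts of lower members do not set them apart. In the same unit the log2 ratios at 3 h were -1.05 for Plk2, -1.13 for Tnfrsf10b, -1.16 for Eda2r and -0.84 for Dcxr. At 6 h they were -1.08 for Mdm2, -1.92 for Mdm4, -1.51 for Trp53inp1, -1.02 for Plk2, -1.48 for Phlda3, -1.43 for Zmat3, -1.16 for Tnfrsf10b, -1.10 for Eda2r, -0.75 for Apaf1, -1.63 for Rrm2b, -0.96 for Polk, -1.46 for Ercc5, -1.31 for Dcxr, -1.67 for Ak1 and -1.36 for Slc19a2, with medians of -1.63 for DNA repair and -1.36 for metabolism. Apart from that unit the cause of these shifts was not tested. Depth limits Fas, Gdf15, Pmaip1 and Epha2 most.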

Other observations

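With the cells of a library divided by total UMIs into 3 equal groups, Mdm2 stood at 103, 83.9 and 77.5 CPM in the lowest, middle and highest group of control cells, and at 224, 231 and 259 CPM in those of the 6 h library. The order of the groups was thus opposite in these libraries, highest in the shallow cells of the control and highest in the deep cells at 6 h. The 3 h library, at 107, 85.3 and 83.8 CPM, had the order of the control. With 1 library per group this difference was not tested.

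Among other induced targets of p53, chosen after their values were seen, Sfn, which encodes the 14-3-3 protein sigma, stood at 23.3, 53.1 and 61.4 CPM in the control, 3 h and 6 h, so that most of its rise lay before 3 h. Arap2 stood at 17.0, 18.03 and 47.8 CPM and Klhl26 at 25.5, 22.5 and 79.1 CPM, both near or below the control at 3 h and above it at 6 h. Ddit4l stood at 9.40, 11.5 and 26.7 CPM, while Ddit4, an inhibitor of mTORC1 in the same family, stood at 16.8, 6.59 and 10.1 CPM, below the control at both times.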
